A study of Mus musculus with 6 samples.

Results

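Sestrins, REDD proteins and the GATOR complexes are stress and amino acid sensors that act on the kinase complex mTORC1. The genes described here are the 3 sestrin genes Sesn1, Sesn2 and Sesn3, the REDD genes Ddit4 and Ddit4l, and 5 GATOR genes, Nprl2, Nprl3 and Depdc5 of GATOR1 and Wdr24 and Mios of GATOR2. They were taken by gene symbol, and all 10 were found among the 22651 genes of each of the 6 tables. The set was chosen by pathway with its fold changes between TSC1 and WT mice already seen. The mRNA-sequencing profiled telencephalon, the forebrain region of cortex and striatum, of mice at postnatal day 0. The 3 WT mice carried the genotype TSC1 flox/flox;Emx1 +/+, and the 3 TSC1 mice carried TSC1 flox/flox;Emx1-cre/+. All 6 therefore had a floxed Tsc1 gene, and only the TSC1 mice carried Cre, which removes exons of Tsc1 in cells derived from the embryonic dorsal cortex. The WT mice had no Cre, so the Cre insertion itself has no control of its own. Cells of other lineages in the dissected tissue, such as those of the striatum, are not expected to have lost Tsc1.

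mTORC1 is switched on at the lysosome, where Rag GTPases recruit it and the GTPase Rheb activates it. Sestrins bind GATOR2 and hold it back, and Sesn2 lets go when it binds leucine. GATOR2 in turn restrains GATOR1, which switches the Rag GTPases off, so that GATOR1 and the sestrins oppose mTORC1 and GATOR2 favours it. REDD1, the product of Ddit4, opposes mTORC1 through the TSC complex of Tsc1 and Tsc2, which inactivates Rheb. Sesn2 and Ddit4 are also known as genes induced by stress, among others through the transcription factor ATF4.

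Since these fold changes were known when the genes were picked, their differences are given as a description, without a test of their own. Sesn2, Sesn3, Ddit4 and, by a smaller step, Sesn1 were higher in TSC1. Among the GATOR genes only Depdc5 had groups that did not overlap, as was so for 22.7% of all tested genes. Sesn2 stood apart, at 5.90-fold of the WT level in the fit of all genes. Levels are given as TPM, which divides the counts of a gene by its length and scales every sample to the same total, and as the expected counts from which they come. Differences are log2 fold changes of TSC1 against WT from edgeR's quasi-likelihood fit of the counts, with a standard error and an interval of 95% that is not adjusted for the number of genes.

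**Figure D1:**
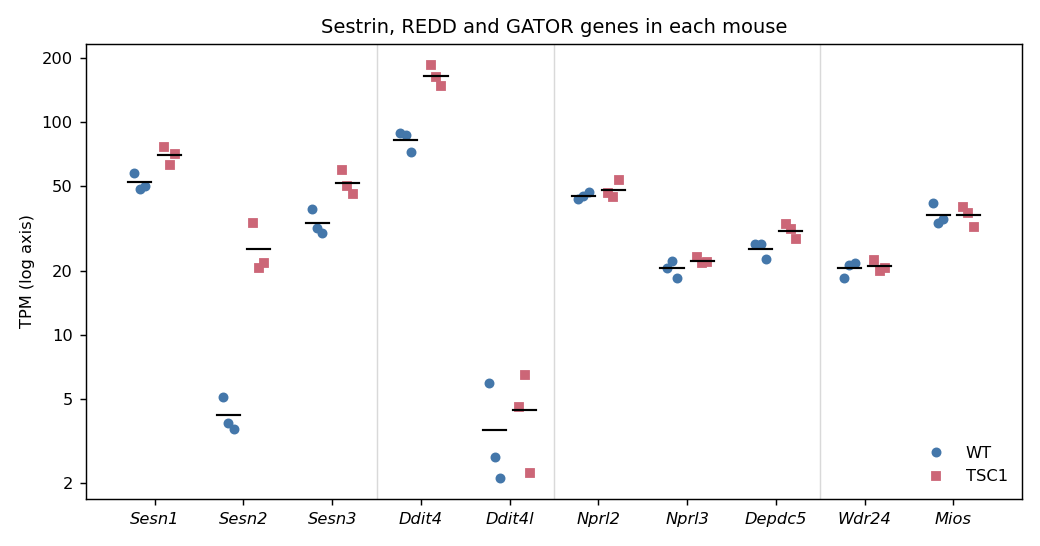
TPM (log axis) of the 10 genes in each mouse, with circles for WT, squares for TSC1 and a black line at the mean of 3. The squares of Sesn1, Sesn2, Sesn3, Ddit4 and Depdc5 all lie above the circles, and those of the other 5 genes overlap them.

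The promoters of the genes with the largest differences are shown first. Whether known regulators of the sestrins and Ddit4 act through these stretches was not tested. They come from RefSeq on GRCm38.p6, the assembly of mm10, and run 5′ to 3′ on the strand of the gene up to the start site or to the first base that the annotation gives as exon. The Sesn2 stretch covers chr4:132510502-132510706 on the minus strand, the Sesn3 stretch chr9:14276051-14276300 on the plus strand, the Sesn1 stretch, before the second of its 2 start sites, chr10:41887189-41887438 on the plus strand, and the Ddit4 stretch chr10:59951835-59952020 on the minus strand. Capitals mark ATTGG, the CCAAT box on the other strand, which the factor NF-Y binds.
Sesn2: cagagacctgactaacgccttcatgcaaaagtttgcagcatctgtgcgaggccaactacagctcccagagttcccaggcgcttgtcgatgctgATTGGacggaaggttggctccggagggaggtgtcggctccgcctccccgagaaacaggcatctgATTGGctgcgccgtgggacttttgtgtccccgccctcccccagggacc
Sesn3: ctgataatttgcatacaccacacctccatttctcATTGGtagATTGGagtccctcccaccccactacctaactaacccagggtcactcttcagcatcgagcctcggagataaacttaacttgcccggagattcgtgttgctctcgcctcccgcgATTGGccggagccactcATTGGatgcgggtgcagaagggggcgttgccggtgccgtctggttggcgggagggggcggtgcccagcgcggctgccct
Sesn1: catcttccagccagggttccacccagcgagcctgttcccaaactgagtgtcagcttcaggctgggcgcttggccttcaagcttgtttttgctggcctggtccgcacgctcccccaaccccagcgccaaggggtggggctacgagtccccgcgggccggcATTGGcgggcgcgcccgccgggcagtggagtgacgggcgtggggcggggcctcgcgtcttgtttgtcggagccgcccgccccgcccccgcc
Ddit4: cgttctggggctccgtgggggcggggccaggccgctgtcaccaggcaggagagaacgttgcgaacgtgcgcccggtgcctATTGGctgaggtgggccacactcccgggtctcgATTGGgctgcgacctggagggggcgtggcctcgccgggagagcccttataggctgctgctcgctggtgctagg

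Of the 10 genes, 9 had a promoter in the RefSeq table, in 10 windows of 250 bases before the start site, and Wdr24 was not among them. The CCAAT box occurred 10 times, each time on the strand opposite to the gene. It was in the windows of Sesn1, Sesn2, Sesn3 and Ddit4, with 4 matches in Sesn3, 2 in Sesn2, 2 in Ddit4 and 1 before each start site of Sesn1. The windows of Ddit4l, Depdc5, Mios, Nprl2 and Nprl3 had no match. Among all 32851 promoter windows of that length, 33.8% held the box on either strand. On both strands, no window of the 9 genes held TGATGNAA (the composite element of ATF4 and C/EBP factors, in 3.45% of all windows), GTAAACA (FoxO, 3.17%), CACGTG (E-box, 6.02%) or TGACGTCA (CRE, 1.55%). The hypoxia core ACGTG, which also lies within CACGTG, was in 16.6% of all windows and occurred once among these genes, in Ddit4 at -187 to -183 from the start site. A match of letters is no measure of binding, and elements outside the windows were not searched. The part of the CCAAT boxes in the differences between the groups was not tested.

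Sesn2 encodes sestrin 2, a leucine-binding sestrin, on chromosome 4 (132492804 to 132510456). Its level was 5.09, 3.84 and 3.61 TPM in WT replicates 1, 2 and 3 and 33.5, 20.5 and 21.7 TPM in TSC1 replicates 1, 2 and 3. The lowest TSC1 mouse thus lay far above the highest WT mouse, and TSC1 replicate 1 lay above the other TSC1 mice. These levels rest on 77, 66 and 50 expected counts in WT and 469, 273 and 331 in TSC1. The means were 4.18 ± 0.796 TPM (SD, n = 3) and 25.2 ± 7.17 TPM (SD, n = 3), and the log2 fold change was 2.56 (standard error 0.21, 95% interval 2.09 to 3.04).

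Sesn3 encodes sestrin 3, a sestrin known as a target of FoxO factors, on chromosome 9 (14276301 to 14326134). Its level was 39.0, 31.8 and 30.0 TPM in WT and 59.4, 50.3 and 46.1 TPM in TSC1, in the order of the replicates. The groups did not overlap, with 7.14 TPM between the highest WT and the lowest TSC1 mouse. WT mice averaged 33.6 ± 4.73 TPM (SD, n = 3) and TSC1 mice 51.9 ± 6.79 TPM (SD, n = 3), a log2 fold change of 0.60 (standard error 0.12, 95% interval 0.34 to 0.86), or 1.51-fold.

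Sesn1 encodes sestrin 1, known as a target of p53, on chromosome 10 (41810574 to 41908436). It had 57.6, 48.6 and 50.1 TPM in WT and 76.4, 62.9 and 70.5 TPM in TSC1, again without overlap. Its means of 52.1 ± 4.80 TPM (SD, n = 3) and 69.9 ± 6.76 TPM (SD, n = 3) made it the sestrin with the highest level in either group. The log2 fold change was 0.39 (standard error 0.09, 95% interval 0.19 to 0.60). RSEM lists a pair of transcripts for Sesn1 and weights its transcript length by their use. That length was 2821.83, 2834 and 2816.37 bases in WT and 2826.53, 2783.93 and 2826.53 bases in TSC1, so the groups overlapped (exact permutation test, two-sided p = 0.7, where 3 against 3 allow no p below 0.1).

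Because sestrins 1, 2 and 3 share their action on GATOR2, their transcripts were also summed. The sum was 102, 84.2 and 83.8 TPM in WT and 169, 134 and 138 TPM in TSC1, with means of 89.9 ± 10.2 (SD, n = 3) and 147 ± 19.3 (SD, n = 3). Sesn2 made up 5.01%, 4.56% and 4.31% of the sum in WT and 19.8%, 15.3% and 15.7% in TSC1. Sesn1 held 58.0% ± 1.64 (SD, n = 3) of the sum among WT mice and 47.7% ± 2.96 (SD, n = 3) among TSC1 mice, without overlap. Sesn3 held 37.3% ± 1.32 (SD, n = 3) and 35.4% ± 2.15 (SD, n = 3), and its groups overlapped. The mean TPM of Sesn2 was 21.0 higher in TSC1, that of Sesn3 18.3 higher and that of Sesn1 17.8 higher, so that in transcripts the 3 genes differed by similar amounts although their fold changes did not.

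**Figure D2:**
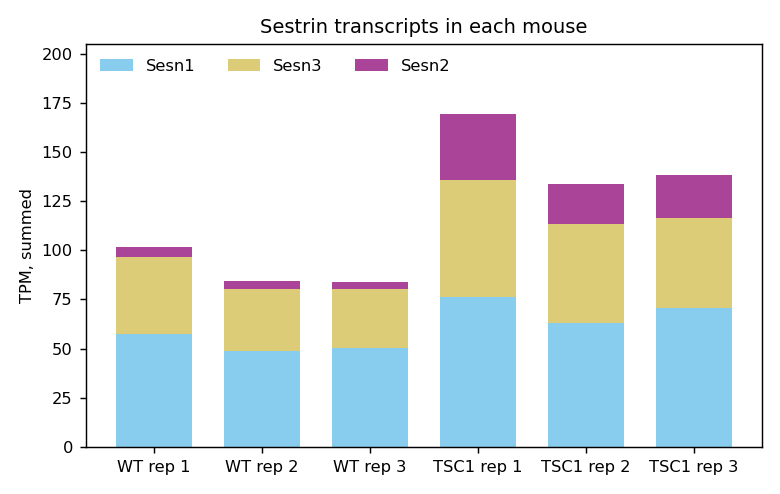
Summed TPM of Sesn1, Sesn3 and Sesn2, stacked, in each of the 3 WT and 3 TSC1 mice. The sums lie between 83.8 and 102 in WT and between 134 and 169 in TSC1, and the top segment, Sesn2, is 4.31% to 5.01% of the bar in WT and 15.3% to 19.8% in TSC1.

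Ddit4 encodes REDD1, on chromosome 10 (59949675 to 59951770), and had the highest level of the 10 genes in both groups. It had 89.0, 87.1 and 72.1 TPM in WT and 186, 162 and 148 TPM in TSC1, so that every TSC1 mouse lay well above every WT mouse. The expected counts behind these levels were 845, 940 and 627 in WT and 1637, 1355 and 1414 in TSC1. WT mice averaged 82.7 ± 9.28 TPM (SD, n = 3) and TSC1 mice 165.6 ± 19.3 TPM (SD, n = 3), and the log2 fold change was 0.97 (standard error 0.10, 95% interval 0.75 to 1.19), or 1.96-fold.

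Ddit4l, on chromosome 3 (137623672 to 137628332), encodes the related REDD2. It was near the lower end of expression, at 5.93, 2.67 and 2.11 TPM in WT and 4.59, 6.44 and 2.24 TPM in TSC1. The groups overlapped fully, and the spread within each group was larger than the difference between their means. Counts were 92, 47 and 30 in WT and 66, 88 and 35 in TSC1. The log2 fold change of 0.28 had a standard error of 0.43 and a 95% interval from -0.69 to 1.24, so a difference of the size of that of Ddit4 could not be told from none in this gene. Ddit4 accounted for 96.0% ± 1.93 (SD, n = 3) of REDD transcripts among WT mice and 97.4% ± 1.17 (SD, n = 3) among TSC1 mice.

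GATOR1 is the complex that inactivates the Rag GTPases, and Depdc5, on chromosome 5 (32863646 to 32994233), encodes its largest subunit. Depdc5 had 26.6, 26.8 and 22.8 TPM in WT and 33.0, 31.4 and 28.1 TPM in TSC1. The groups did not overlap, but WT replicate 2 and TSC1 replicate 3 were only 1.23 TPM apart. The log2 fold change was 0.24 (standard error 0.08, 95% interval 0.05 to 0.42). Depdc5 was not called in the full fit, in any alternative or in any fit that left out a mouse. Depdc5 has 3 listed transcripts, and its weighted length was 6309.26, 6066.52 and 6441.04 bases in WT and 6114.39, 6343.81 and 6108.34 bases in TSC1, which overlapped (exact permutation test, two-sided p = 0.7). The other 8 genes had the same transcript length in every sample, so this readout of transcript choice exists for Sesn1 and Depdc5 only. The count of lengths without overlap was thus 0 of 10, against 2.38% of all tested genes and 10.8% of the 3081 genes whose length varied at all.

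Nprl2, on chromosome 9 (107542177 to 107545706), encodes the catalytic subunit of GATOR1. It had 43.7, 44.7 and 46.8 TPM in WT and 46.3, 44.3 and 53.3 TPM in TSC1. Its log2 fold change was 0.06 (standard error 0.11, 95% interval -0.19 to 0.31), and the groups overlapped. Nprl3, on chromosome 11 (32231963 to 32267707), encodes the partner of Nprl2. It had 20.7, 22.2 and 18.6 TPM in WT and 23.3, 21.7 and 21.9 TPM in TSC1, which overlapped. Its log2 fold change was 0.09 (standard error 0.10, 95% interval -0.14 to 0.33). In the summed GATOR1 transcripts, Nprl2 had 49.6% ± 3.04 (SD, n = 3) among WT mice and 47.4% ± 3.67 (SD, n = 3) among TSC1 mice, and Depdc5 had 27.9% ± 1.82 (SD, n = 3) and 30.5% ± 2.91 (SD, n = 3). Both shares overlapped between the groups.

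Mios and Wdr24 encode core subunits of GATOR2, the complex that sestrins bind. Mios, on chromosome 6 (8209111 to 8240573), had 41.4, 33.4 and 35.01 TPM in WT and 39.7, 37.5 and 32.1 TPM in TSC1. Wdr24, on chromosome 17 (25823627 to 25828730), had 18.5, 21.3 and 21.7 TPM in WT and 22.6, 19.9 and 20.6 TPM in TSC1. The groups of both genes overlapped. The log2 fold change was -0.03 for Mios (standard error 0.10, 95% interval -0.26 to 0.19) and 0.01 for Wdr24 (standard error 0.11, 95% interval -0.24 to 0.25), so a difference of the size seen in Sesn3 lay outside both intervals.

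In WT, the order of mean TPM was Ddit4, Sesn1, Nprl2, Mios, Sesn3, Depdc5, Wdr24, Nprl3, Sesn2 and Ddit4l. The ranges of neighbours overlapped for Mios with Sesn3, Wdr24 with Nprl3 and Sesn2 with Ddit4l, and not for the other neighbours. In TSC1, the order was Ddit4, Sesn1, Sesn3, Nprl2, Mios, Depdc5, Sesn2, Nprl3, Wdr24 and Ddit4l. Sesn2 was thus at rank 9 in WT and at rank 7 in TSC1, where its range overlapped those of Depdc5 and Nprl3. From Mios down to Wdr24, each gene in TSC1 overlapped the next, as did Sesn3 and Nprl2. Replicate 1 had the highest level of its group for Sesn1, Sesn2, Sesn3, Ddit4 and Mios in WT and again in TSC1. It had the highest level for 6 of the 10 genes in WT and 8 of the 10 in TSC1.

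In the fit over the 13969 genes that passed the filter on low counts, which all 10 genes passed, edgeR called Sesn2, Sesn3 and Ddit4 at a Benjamini-Hochberg adjusted p below 0.05, all higher in TSC1. Of all tested genes, 1.52% were called, 0.859% as higher and 0.659% as lower. The groups did not overlap in TPM for 5 of the 10 genes, against 22.7% of all tested genes (12.3% higher in TSC1). The median log2 fold change was 0.26 over the 10 genes and -0.0027 over all tested genes. The genes were chosen with this contrast known, and nothing is read from these counts. DESeq2 (4.58% of tested genes called) and the fit with the replicate number as a block (3.94%) also called Sesn1, whereas limma on log2(TPM + 1) called Sesn2 alone (0.15%), and upper-quartile normalization did not call Sesn3. The call of Sesn3 was lost without WT replicate 2 (log2 fold change 0.56), WT replicate 3 (0.54), TSC1 replicate 1 (0.51) or TSC1 replicate 2 (0.61).

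Total expected counts ranged from 14119365 to 17772865 per mouse, at which 3 counts correspond to 0.169 to 0.212 CPM. Tsc1 itself had 50.2, 32.0 and 28.4 TPM in WT and 27.1, 21.7 and 22.4 TPM in TSC1. Its log2 fold change was -0.66 (standard error 0.18) and was not called (edgeR adjusted p = 0.09998). The values count reads of the whole gene, not of the deleted exons. On the first principal component (47.7% of the variance), TSC1 replicate 3 lay at -3.95, near WT replicate 1 at -7.43 and far from the other TSC1 mice at 26.5 and 30.3. Without it, the log2 fold change was 2.65 for Sesn2, 0.67 for Sesn3, 1.03 for Ddit4 and 0.37 for Sesn1. Xist was at most 0.66 TPM in replicate 3 of each group and at least 442 TPM in the other mice. The Y-linked gene Ddx3y was at 64.25 TPM in WT replicate 3, 61.97 TPM in TSC1 replicate 3 and 0 in the other mice. By these genes, replicate 3 was the only male of each group, so the groups held the same mix of sexes. The 7 telencephalon markers used, among them Neurod6 and Tbr1, summed to 1569 to 1757 TPM in WT and 1610 to 2019.6 TPM in TSC1, with 4 higher, 3 lower and 1 called, as lower, and markers of diencephalon, midbrain and hindbrain to at most 8.02 TPM.

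Markers of some other cell types moved with the groups in this bulk tissue, in which fewer cells of a type and less RNA per cell cannot be told apart. All 14 markers of subpallium and striatum, such as Dlx1 and Drd2, had a lower level in TSC1, 4 of them with an edgeR call, and summed to 550 to 664 TPM in WT and 245 to 409 TPM in TSC1. The 6 choroid plexus markers, led by Ttr, were also all lower, at 1176 to 2473 TPM and 31.8 to 867 TPM, with no call. Of the blood markers, all 5 tested were lower (2882 to 9226 TPM and 2357 to 3228 TPM), and of the endothelial markers 5 of 6 (173 to 231 TPM and 146 to 177 TPM), with no edgeR call in either list. At an unadjusted p below 0.05, which 18% of all tested genes had, were 13 of 14 subpallium and striatum, 6 of 6 choroid plexus, 4 of 5 blood, 4 of 6 endothelial, 3 of 7 microglia, 3 of 7 oligodendrocyte lineage and 3 of 6 astrocyte markers. Microglia markers summed to 150 to 202 TPM in WT and 148 to 218 TPM in TSC1, oligodendrocyte lineage markers to 204 to 262 TPM and 189 to 206 TPM, and astrocyte markers to 2848 to 3444 TPM and 2799 to 2965 TPM. Of the 6 astrocyte markers, 2 had a higher and 4 a lower level in TSC1 (median -0.10 on the log2 scale). Gfap was the single call, as higher. Hbb-b2 among the blood markers and Hoxb3 among the hindbrain markers were at 0 in every mouse. Their part in the differences of the sestrins and Ddit4 was not tested.

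The rest of the amino acid sensing pathway was read from 24 genes listed from knowledge of the pathway, all of which were found and tested. Of these, 2 rose in TSC1 and none fell by edgeR's test at an adjusted p below 0.05, against 1.52% of all tested genes called in either direction. An unadjusted p below 0.05 was found for 8 of the 24, against 18% of all tested genes. The median log2 fold change of the 24 was 0.09, and the groups did not overlap in TPM for 8 of the 24, against 22.7% of all tested genes. Rragd, which encodes one of the Rag GTPases, averaged 53.9 ± 2.99 TPM (SD, n = 3) among WT mice and rose to 79.2 ± 4.12 TPM (SD, n = 3) among TSC1 mice (log2 fold change 0.53, standard error 0.07, edgeR adjusted p = 0.0104). Its values were 56.7, 54.4 and 50.7 TPM in WT and 78.5, 83.7 and 75.6 TPM in TSC1, without overlap. Castor2, a relative of the arginine sensor Castor1 and listed under the older name Gatsl2, rose from 41.0 ± 7.95 TPM (SD, n = 3) to 63.2 ± 5.80 TPM (SD, n = 3) (log2 fold change 0.60, standard error 0.12, edgeR adjusted p = 0.0479). It had 50.1, 37.7 and 35.3 TPM in WT and 59.7, 69.9 and 60.1 TPM in TSC1.

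Both calls were lost in several fits that left out a mouse, as were most calls over the whole table. The count of 2 was 0 without WT replicate 2, WT replicate 3 or TSC1 replicate 2, 1 without TSC1 replicate 1, 3 without WT replicate 1 and 5 without TSC1 replicate 3. Over all tested genes, 212 were called in the full fit. In the fits just listed, in that order, 29, 35, 37, 37, 447 and 799 were called. Castor2 was not called without WT replicate 2 (edgeR adjusted p = 0.203), WT replicate 3 (0.162), TSC1 replicate 1 (0.16) or TSC1 replicate 2 (0.195), and its adjusted p over all alternatives ran from 0.000206 to 0.203. Rragd was not called without WT replicate 2 (edgeR adjusted p = 0.0656), WT replicate 3 (0.0711) or TSC1 replicate 2 (0.0519), with a range from 2.54e-07 to 0.0958. Over the alternatives, the log2 fold change of Rragd stayed between 0.48 and 0.55 and that of Castor2 between 0.52 and 0.74.

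By role, no gene was called among the other 3 GATOR2 genes (Wdr59, Seh1l and Sec13, log2 fold changes from -0.08 to 0.11), among the 5 Ragulator genes that anchor the Rag GTPases to the lysosome (-0.12 to 0.05) or among the 4 KICSTOR genes that anchor GATOR1 there (-0.36 to 0.30). Of these, Wdr59 had the largest absolute value in its list at 0.11 (edgeR adjusted p = 0.541), Lamtor3 at -0.12 (0.688) and Itfg2 at -0.36 (0.16). At an unadjusted p below 0.05, 2 of the KICSTOR genes and none of the GATOR2 or Ragulator genes passed. Flcn, Fnip1 and Fnip2, which form the folliculin complex that acts on the Rag GTPases, had log2 fold changes of 0.42, 0.35 and 0.30 and non-overlapping TPM, with edgeR adjusted p-values of 0.0874, 0.0752 and 0.0754. DESeq2 called all 3 of them, and none of the GATOR2, Ragulator or KICSTOR genes.

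**Figure D3:**
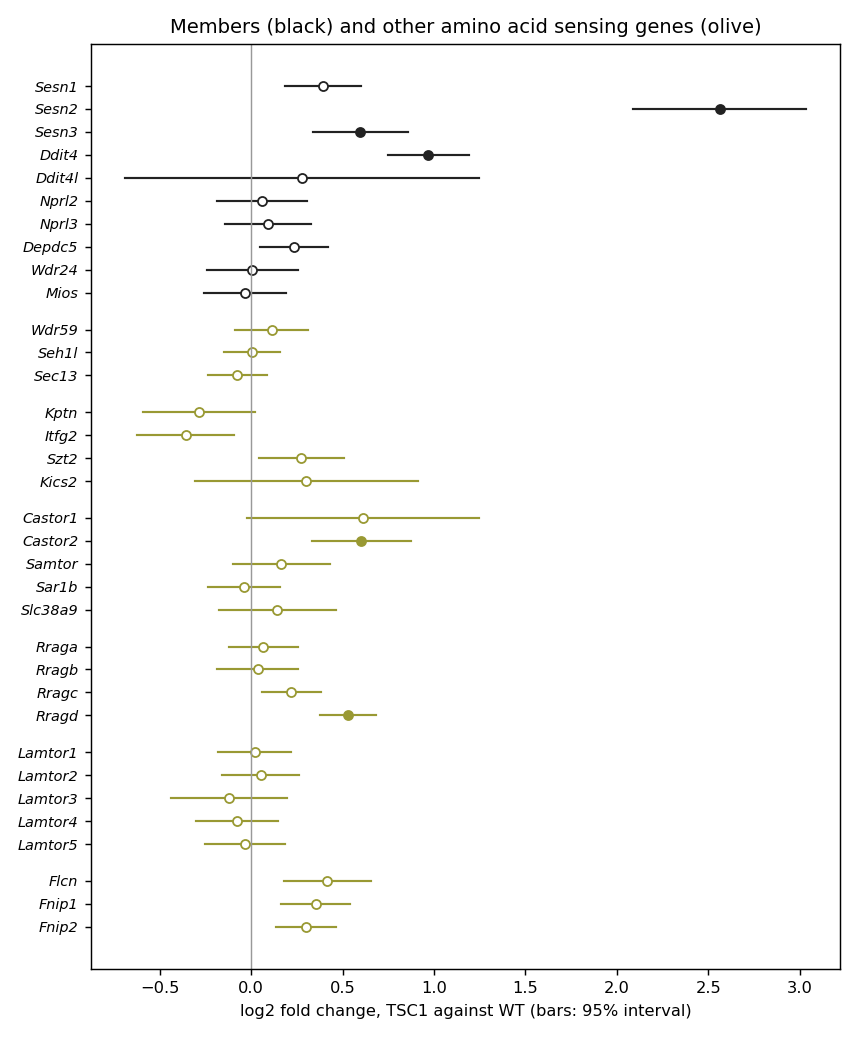
Log2 fold change of TSC1 against WT with its unadjusted 95% interval for the 10 sestrin, REDD and GATOR genes (black) and 24 other amino acid sensing genes (olive), with filled points for genes that edgeR called. Sesn2 lies at 2.56, Ddit4 at 0.97 and Sesn3 at 0.60, Castor2 and Rragd are the filled olive points at 0.60 and 0.53, and the GATOR genes other than Depdc5 (0.24) and the Ragulator genes lie near 0.

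Sestrins and Ddit4 are textbook targets of several stress pathways, so the other targets of those pathways were read from the same fit, as lists written without the 10 genes. Of 15 matched ATF4 targets, 7 rose and none fell by edgeR's test, against 1.52% of all tested genes called in either direction. The median log2 fold change of the 15 was 0.82, against -0.0027 over all tested genes. An unadjusted edgeR p below 0.05 was found for 11 of the 15, against 18% of all tested genes. The groups did not overlap in TPM for 11 of the 15, against 22.7%. Chac1, which degrades glutathione, rose on the log2 scale by 3.15 (standard error 0.61, edgeR adjusted p = 0.0471), the hormone gene Stc2 by 1.86 (0.25, adjusted p = 0.0137), the folate enzyme gene Mthfd2 by 1.69 (0.25, adjusted p = 0.0203) and the asparagine synthetase gene Asns by 1.54 (0.11, adjusted p = 0.000846). Chac1 was at 87.1, 51.9 and 11.4 TPM in TSC1 replicates 1, 2 and 3, and the call held in 1 of the 6 fits that left out a mouse. The count was 3 without WT replicate 2 and 3 without WT replicate 3, and Asns, Aldh1l2 and Slc7a5 were called in all 6 of those fits.

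Of 8 matched glucocorticoid targets, 5 rose and none fell, with a median log2 fold change of 0.46, where 1.52% of all tested genes were called. An unadjusted edgeR p below 0.05 was found for 5 of the 8, against 18% of all tested genes. The groups did not overlap in TPM for 6 of the 8, against 22.7%. The metallothionein genes Mt1 and Mt2 rose on the log2 scale by 0.93 (standard error 0.10, edgeR adjusted p = 0.00511) and 0.52 (0.10, adjusted p = 0.0449), the transcription factor gene Zbtb16 by 0.67 (0.12, adjusted p = 0.0402) and the clock gene Per1 by 0.49 (0.09, adjusted p = 0.0352). Metallothionein genes also answer to metals, and Mt1 was the only 1 of the 5 called in all 6 fits that left out a mouse. The count was 1 without WT replicate 2, WT replicate 3, TSC1 replicate 1 or TSC1 replicate 2.

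Of 12 p53 targets, Trp53inp1 alone was called, at 0.39 in log2 units (standard error 0.07, edgeR adjusted p = 0.0297), and the median was 0.17. Of 12 FoxO targets, Cdkn1b alone was called, at 0.37 in log2 units (standard error 0.06, edgeR adjusted p = 0.0297), and the median was 0.15. The largest change of the FoxO list lay in the other direction and was not called: Txnip, an inhibitor of thioredoxin, was picked after its values were seen and had 109.9, 217 and 191 TPM in WT and 35.6, 35.9 and 108 TPM in TSC1 (log2 fold change -1.55, edgeR adjusted p = 0.107, range over the alternatives 0.00171 to 0.335). The 12 FoxO targets summed to 547 to 592 TPM in WT and 502 to 530.2 TPM in TSC1. Within these sums Txnip averaged 172.6 TPM in WT and 59.8 TPM in TSC1. By log2 fold change, 8 of the 12 targets were higher in TSC1 and 4 lower. Of 11 tested hypoxia targets, Vegfa alone was called, at 0.51 in log2 units (standard error 0.10, edgeR adjusted p = 0.046), and the median was 0.11. Over all tested genes, 1.52% were called and the median was -0.0027. An unadjusted edgeR p below 0.05, in either direction, was found for 6 p53, 4 FoxO and 4 hypoxia targets, against 18% of all tested genes. The groups did not overlap in TPM for 3 p53, 4 FoxO and 5 hypoxia targets, against 22.7%. Each of the p53, FoxO and hypoxia lists had a count of 0 without WT replicate 2, WT replicate 3 or TSC1 replicate 1. The p53 and FoxO lists were also at 0 without TSC1 replicate 2, and the hypoxia list at 0 without WT replicate 1. Without TSC1 replicate 3 the counts were 2 for p53 targets, both higher, 2 for FoxO targets, of which Txnip was lower, and 3 for hypoxia targets, of which Ankrd37 was lower, and without WT replicate 1 the p53 count was 3.

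**Figure D4:**
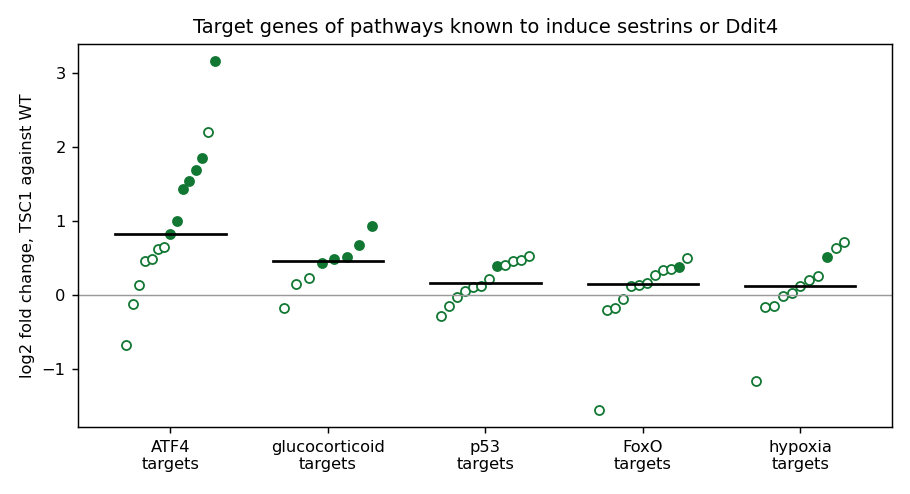
Log2 fold change of TSC1 against WT (vertical axis) of each tested target gene of 5 pathways known to induce sestrins or Ddit4, with filled points for genes that edgeR called and a line at the median of each list. The medians lie at 0.82 for ATF4, 0.46 for glucocorticoid, 0.17 for p53, 0.15 for FoxO and 0.11 for hypoxia targets.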

How the data were processed

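Telencephalon RNA of 3 WT and 3 TSC1 mice was sequenced, and each mouse has its own table. After quality checks and trimming, the authors mapped reads against mm10 (MapSplice2), and RSEM 1.2.12 gave values per gene. The deposited expected count is RSEM's estimate of the reads of a gene and is not normalized. The deposited TPM is divided by effective length and scaled to the same total in every sample, and the deposited FPKM, used only as an alternative unit for shares, is scaled by the reads counted. The expected counts of the 10 genes were whole numbers in every sample, which leaves no sign of reads divided with other genes.

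Expected counts were rounded and fitted in edgeR 4.0.16 (R 4.3.3; TMM, filterByExpr, quasi-likelihood test, no covariate), with Benjamini-Hochberg adjustment over all tested genes. Standard errors are the log2 fold change divided by the square root of the F statistic. Groups were taken from the sample titles. The members and lists were chosen with earlier results of these data known. The rule for named genes was all 10 members, of each other list the called genes with up to 4 largest changes or, with no call, the largest change, and the 5 genes most like Sesn2, Ddit4 and Sesn3. Kics2, Castor1, Castor2 and Samtor were matched by older names or RefSeq transcripts. Genes of the lists that are missing from the tables (Psat1, Slc3a2, Vldlr, Klf9, Emx2 and Tcf7l2) were not analysed here. A further telencephalon marker is not reported here.

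Alternatives were RLE and upper-quartile normalization, no filter, at least 10 counts in every sample, DESeq2 1.42.0, limma 3.58.1 on log2(TPM + 1) and log2(TPM + 0.1), effective lengths as offsets, the replicate number as a block, and each mouse left out. The log2 CPM values had a prior count of 2. The method was tested on simulated data for TSC1 against WT, with 200 genes of 13968 changed by 1.5 on the log2 scale, of which edgeR recovered 99.5% with 4.78% false calls. Every simulated gene had the same dispersion, and no outlying mouse was simulated. Recovery of the smaller changes described here was not measured. The study's own test, which permutes the samples, was not used here. Intervals and floors cover counting error or the spread between these 6 mice only.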

Additional observations from a re-analysis of the deposited data

How the results depend on the processing

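The log2 fold changes of the 10 sestrin, REDD and GATOR genes moved by less than the replicate SD in all 90 values from 9 alternatives and all 60 values from fits that left out a mouse. Leaving out a mouse can hardly move a group mean by as much as that SD, so the 60 values say little about robustness. Over these alternatives and left-out mice, Sesn2 was called in all 15 fits and Ddit4 in 13, the exceptions being limma with either offset. These fits reuse the values that were known when the genes were picked, so the calls are no independent support. At these depths, Ddit4l was the gene with the least precise value, and leaving out a mouse moved its log2 fold change between -0.10 and 0.82.

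The number of genes called over the whole table was 212 and moved to 640 with DESeq2, 346 with no filter on low counts, 551 with the replicate block, 21 with limma on log2(TPM + 1) (19 higher and 2 lower) and 17 with log2(TPM + 0.1), and between 29 and 799 when each mouse was left out. Among the 10 genes, 3 were called, and 1 with either limma offset, and between 2 and 3 without a mouse. Of the other amino acid sensing genes, 2 were called, and 5 with DESeq2, 4 with the replicate block, 1 with upper-quartile normalization, 0 with either limma offset and between 0 and 5 without a mouse. Of the ATF4 targets, 7 were called, and 3 and 2 with limma at offsets of 1 and 0.1, and between 3 and 8 without a mouse. Of the glucocorticoid targets, 5 were called, and 3 with upper-quartile normalization, 1 with either limma offset and between 1 and 5 without a mouse. Of the p53 targets, 1 was called, and 3 with DESeq2, 3 with the replicate block, 2 with no filter, 0 with limma and between 0 and 3 without a mouse. Of the FoxO targets, 1 was called, and 2 with the replicate block (Cdkn1b higher and Txnip lower), 0 with limma and between 0 and 2 without a mouse. Of the hypoxia targets, 1 was called, and 2 with DESeq2, no filter or the replicate block, 0 with upper-quartile normalization or limma and between 0 and 3 without a mouse. The cause of these moves was not tested.

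The share of Sesn2 in sestrin transcripts was 12.3 percentage points higher in TSC1, 12.8 in expected counts and between 10.9 and 13.1 without a mouse. No member had a transcript length without overlap (2.38% of tested genes had one), also without any single mouse. The 8 members of constant length had an effective length without overlap. Effective length subtracts a fragment length that RSEM models per sample, so these 8 repeat the same property of the libraries. The libraries of the groups thus differed in modelled fragment length, which cannot be told apart from genotype here. The share of all tested genes was not counted for effective length. Same-numbered mice of the groups correlated in their deviations from the group means with r = 0.267, -0.133 and 0.318 across genes for numbers 1, 2 and 3. Number 3 was the male of each group by Xist and Ddx3y. The numbers were not taken to pair the mice, so the replicate block is given as an alternative.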

Other observations

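The genes whose pattern over the 6 mice was most like that of Sesn2, Ddit4 or Sesn3 were sought among 12718 other genes, by the root mean square difference of log2 CPM after each gene was centred on its own mean. Nearest to Sesn2 were Trim66 (0.33), Eif4ebp1 (0.35), Fam107a (0.41), Stc2 (0.43) and Folh1 (0.47), and all 5 differences were above the pooled replicate SD of Sesn2 of 0.30. Eif4ebp1, which encodes the translation repressor 4E-BP1, had 5.92, 8.45 and 8.88 TPM in WT and 51.7, 36.1 and 33.2 TPM in TSC1. Nearest to Ddit4 were Tmem144, Pck2, Lrp4, Aldh1l2 and Arhgap15, at 0.11 to 0.13, and nearest to Sesn3 were Cacna2d1, Il1r1, Arap2, Abca8a and Car4, at 0.04 to 0.07. Those differences were below the replicate SD of 0.14 for Ddit4 and 0.16 for Sesn3. Cacna2d1, a calcium channel subunit gene, had 86.2, 71.6 and 67.6 TPM in WT and 124.5, 113.9 and 104.4 TPM in TSC1, in the same order of mice as Sesn3 in each group. All 15 genes were higher in TSC1. With 6 mice in 2 groups, a small difference says little beyond a similar step between the groups.

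The regulator genes themselves, picked after their values were seen, gave the following levels. Atf4 mRNA had 217, 219 and 210 TPM in WT and 474, 311 and 204 TPM in TSC1. The groups overlapped for Atf4. Trp53 averaged 50.6 ± 8.11 TPM (SD, n = 3) among WT mice and 50.9 ± 5.08 TPM (SD, n = 3) among TSC1 mice. Foxo1 had 25.4, 19.7 and 19.7 TPM in WT and 15.3, 16.1 and 17.4 TPM in TSC1. Nr3c1, the glucocorticoid receptor gene, was at 14.8, 13.3 and 13.6 TPM in WT and at 11.4, 10.2 and 12.9 TPM in TSC1. Hif1a averaged 111.7 ± 1.88 TPM (SD, n = 3) among WT mice and 129.5 ± 5.16 TPM (SD, n = 3) among TSC1 mice. The groups did not overlap for Foxo1, Nr3c1 and Hif1a, as was so for 22.7% of all tested genes. None of these regulator genes was called by edgeR. The part of these regulators in the levels of the sestrins and Ddit4 was not tested.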
